A study of Mus musculus with 7 samples.

Results

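The regions described here are the open chromatin of 9 mouse genes that serve the hardening of enamel. Among these genes are the proteases Mmp20 and Klk4 and the ion transport genes Slc24a4, Slc4a4 and Stim1. The others are the Golgi kinase Fam20c, its pseudokinase partner Fam20a, and the maturation genes Wdr72 and Fam83h. The genes were taken by name, and every ATAC-seq peak inside a gene body or within 50 kb of it was counted in each of 7 libraries. The members are 9 of 20661 autosomal protein-coding genes, and peaks from all libraries merged into 166 regions at them, of 128642 autosomal regions in all. ATAC-seq uses a transposase that inserts adapters into DNA not wrapped around nucleosomes, and a peak marks a stretch where insertions pile up.

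Of the 5 groups, 2 had a pair of libraries each. The first was ectoderm from the first pharyngeal arch of E11.5 embryos, loosened with Dispase II and peeled from its mesenchyme. The second was Sox2-positive cells sorted by FACS from the dissociated labial cervical loop of P2 lower incisors, in the Sox2-GFP line, whose GFP is driven by the endogenous Sox2 promoter. The labels call the sorted cells dental epithelial stem cells, and only the reporter is named as the sorting signal. Whole lower incisor, whole lower first molar and whole upper first molar at P2 gave 1 library each and have no replicate check. No deletion or drug treatment is labelled in any group. Strain, sex, pooling of animals and whether the replicates came from separate animals are not given in the sources used here, so the spread between replicates may be technical. All libraries were made by Omni-ATAC.

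Enamel is laid down by ameloblasts as a protein matrix in which thin mineral ribbons form. In the secretory stage Mmp20, or enamelysin, trims the matrix proteins. In the maturation stage Klk4 degrades what remains, calcium and bicarbonate are carried into the space, and the ribbons widen into crystals. Loss of any of several of these genes causes amelogenesis imperfecta, inherited faulty enamel, in people or mice. The ectoderm studied here was taken long before any enamel forms, and in the P2 incisor the ameloblasts lie further along the tooth than the cervical loop that holds its stem cells.

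The autosomal peak lists held 80850 and 49719 peaks in ectoderm, 41829 and 38326 in the sorted Sox2-positive cells, 62074 in incisor, 68877 in lower molar and 67193 in upper molar. Read counts were not analysed here and the depth behind each list is unknown, so counts are given over all peaks and again over 38000 autosomal peaks per library, those whose p-values were smallest. The second setting is called equal lists. Markers of epithelium had a start peak for 5 of 6 genes in every full list, with Trp63 the exception. Markers of dental mesenchyme and odontoblasts had one for 5 and 6 of 9 genes in ectoderm, 8 in each Sox2-positive library, 9 in incisor, and 8 in each molar. Pdgfra and Runx2 were marked in the paired Sox2-positive lists and absent from ectoderm, and Dspp was marked in incisor only. Sox2 itself, the sorting gene, had a start peak in all 7 full lists, and in equal lists only in ectoderm and the sorted cells. In full lists endothelial markers reached 2 or 3 of 5 genes and blood markers 2 or 3 of 5, with Pecam1, Tek, Ptprc and Csf1r at 0 in every library. The third blood gene, Tyrobp, was marked in the sorted libraries and in no other. With equal lists endothelial markers numbered 0 in incisor and 1 in each molar, and incisor lost Epcam among the epithelial genes. The mesenchymal count was thus higher in all P2 libraries, the sorted ones included, than in ectoderm, and its part in the results below was not tested. In such bulk lists, fewer cells with an open region and less opening per cell cannot be told apart.

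The promoters of 4 members are shown because the libraries differed at the first 3 and were alike at the last. Each is the 250 bases before the start of the gene in RefSeq on GRCm38.p6, 5′ to 3′ along the gene, on the plus strand: Klk4 at chr7:43880910-43881159, Mmp20 at chr9:7627981-7628230, Slc24a4 at chr12:102128477-102128726 and Stim1 at chr7:102267569-102267818. Capitals mark matches to the 8 motifs searched on both strands.
Klk4: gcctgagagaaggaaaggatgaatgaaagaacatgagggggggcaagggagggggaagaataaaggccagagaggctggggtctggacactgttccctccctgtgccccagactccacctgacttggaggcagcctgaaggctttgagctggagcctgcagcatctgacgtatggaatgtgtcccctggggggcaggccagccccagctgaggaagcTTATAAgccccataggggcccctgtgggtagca
Mmp20: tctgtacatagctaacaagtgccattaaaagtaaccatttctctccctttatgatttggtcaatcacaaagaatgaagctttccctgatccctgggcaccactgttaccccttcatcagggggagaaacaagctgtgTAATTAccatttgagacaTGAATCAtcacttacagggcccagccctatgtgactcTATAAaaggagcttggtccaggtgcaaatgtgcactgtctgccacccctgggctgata
Slc24a4: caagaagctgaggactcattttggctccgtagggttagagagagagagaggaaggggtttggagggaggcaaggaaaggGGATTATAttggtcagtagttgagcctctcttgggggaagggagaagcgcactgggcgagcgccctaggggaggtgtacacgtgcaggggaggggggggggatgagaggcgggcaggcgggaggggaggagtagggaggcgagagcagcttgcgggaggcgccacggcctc
Stim1: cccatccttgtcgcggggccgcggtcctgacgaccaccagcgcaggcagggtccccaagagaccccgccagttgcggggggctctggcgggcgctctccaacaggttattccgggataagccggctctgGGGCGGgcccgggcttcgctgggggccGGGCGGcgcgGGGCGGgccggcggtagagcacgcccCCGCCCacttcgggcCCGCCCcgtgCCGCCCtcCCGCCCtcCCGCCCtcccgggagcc

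The motifs were TATAA for a TATA box, GGGCGG for a GC box of SP and KLF factors, TAATTA for homeodomains, TGTGGT for RUNX, TAATCC for PITX, GCCNNNGGC for AP-2, TGANTCA for AP-1 and AACAAT for SOX. Over 32851 mouse promoters of that length, 22.8% held TATAA, 32.7% GGGCGG, 4.84% TAATTA, 14.0% TGTGGT, 6.25% TAATCC, 13.7% GCCNNNGGC, 6.75% TGANTCA and 9.42% AACAAT. Klk4 held overlapping matches to TATAA on opposite strands that began 33 and 32 bases before the start. Mmp20 held TATAA at 58 bases before its start, with TGANTCA at 95 and TAATTA at 113. Slc24a4 held a TAATCC match at 171 that ran into a TATAA match at 168, both on the opposite strand. Stim1 held no TATAA and 8 GC boxes, between 121 and 17 bases before its start. A match is a description of letters and does not show that a factor binds.

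Promoters of the 2 proteases were poor in CpG, and those of most other members were not. The ratio of observed to expected CpG was 0.0471 at Klk4 and 0 at Mmp20, against a median of 0.373 over all promoters. It was 0.608 at Slc24a4, 0.472 at Fam20a, 0.809 at Stim1, 1.01 at Fam20c and 1.07 at the first start of Slc4a4. The second start of Slc4a4 in the table, at a ratio of 0.206, had no peak over its promoter in any library. The promoter table matched 7 of the 9 members, all but Wdr72 and Fam83h, for which either gene end served as a start.

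Start peaks, meaning a peak within 1 kb of the gene start, were found for 8 of the 9 members in each ectoderm library, where 68.2% and 65.9% of all genes had one. Sox2-positive cells had 7 and 5, beside 59.7% and 58.4% of all genes. Incisor had 7 (62.2% of all genes), lower molar 8 (63.6%) and upper molar 9 (63.5%). Both ectoderm libraries marked 8 members (65.7% of all genes), both Sox2-positive libraries 5 (56.7%) and the 3 whole teeth 7 (60.3%). Fam20a, Fam20c, Slc4a4 and Stim1, or 4 of 9, had a start peak in all 7 libraries, as did 55.7% of all genes. The 5 others were marked in part of the libraries.

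Equal lists kept 8 start peaks in each ectoderm library, beside 60.9% and 62.8% of all genes, and 6 and 5 in Sox2-positive cells, beside 58.4% and 58.2%. Incisor kept 5 (56.6%), lower molar 5 (56.7%) and upper molar 4 (56.9%). The counts for both Sox2-positive libraries, for the 3 whole teeth and for all 7 libraries were 5 (55.8%), 4 (53.8%) and 4 (51.4%). Slc24a4 and Wdr72 were then the members marked by both ectoderm lists and by no Sox2-positive list, a state of 3.61% of all genes. No member had the reverse state (0.992%), a start peak in the 3 whole teeth alone (0.0484%) or one in the molars without the incisor (1.81%). Whole teeth lost start peaks at Klk4, Mmp20, Slc24a4, Wdr72 and Fam83h that ranked below the 38000 kept.

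**Figure D1:**
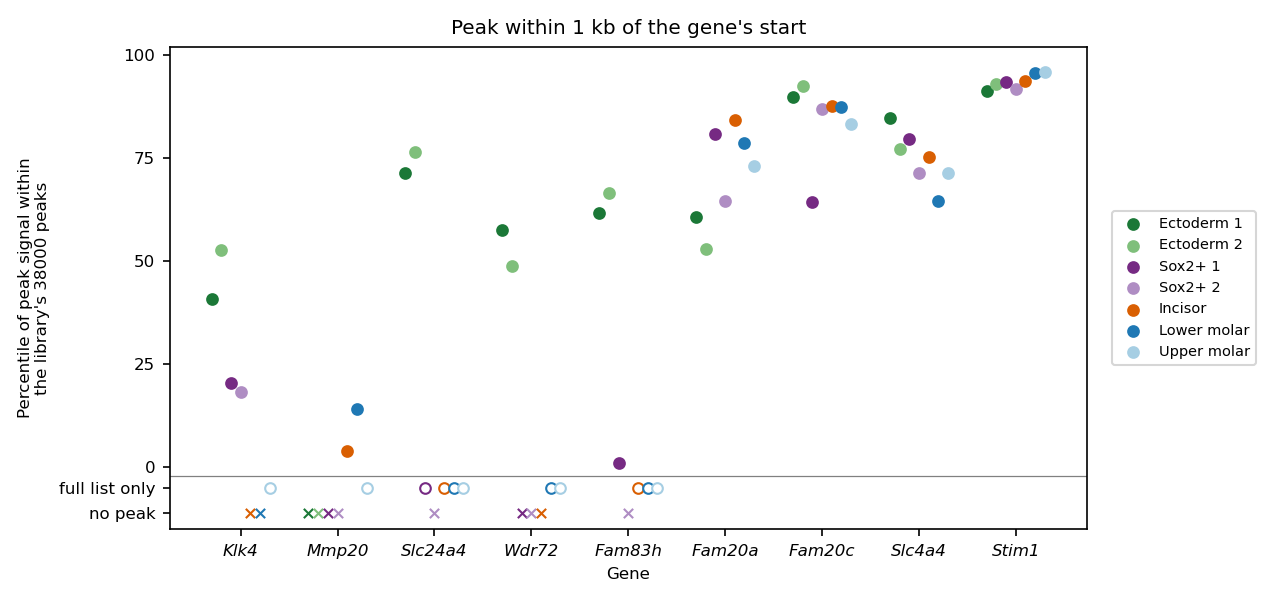
Percentile of the start peak's signal within the 38000 peaks of each library (y axis) for the 9 members (x axis), with 1 coloured point per library. Open circles mark a peak in the full list only and crosses mark no peak. Stim1, Fam20c, Slc4a4 and Fam20a have a filled point for every library, and Mmp20 has filled points for incisor and lower molar alone.

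Mmp20 was the member whose start was marked in whole teeth only. The region, chr9:7628024-7628300, had a deposited signal of 381 in incisor, 553 in lower molar and 330 in upper molar, and no peak in either ectoderm or either Sox2-positive library. Start peaks in the 3 whole teeth and no other library occurred at 0.16% of all genes. The peak was weak in each list: it ranked at percentile 3.88 of signal in incisor and 14.1 in lower molar, and the upper molar peak was not among the 38000 kept. Those peaks covered 202 of the 250 promoter bases shown above in incisor and 207 in lower molar.

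Around Mmp20 the count of peaks was 9 and 5 in ectoderm, 3 and 2 in the sorted Sox2-positive cells, 7 in incisor, 4 in lower molar and 3 in upper molar. A pair of upstream regions, chr9:7594801-7595644 and chr9:7603388-7604616, were centred at -33.0 and -24.2 kb from the start and were present in all 7 libraries. The second stood at percentile 79.0 in incisor, 67.0 in lower molar, 51.0 in upper molar, 68.5 and 63.0 in Sox2-positive cells. It stood at 10.8 in ectoderm replicate 2, and in ectoderm replicate 1 it was in the full list only. All 5 P2 libraries therefore ranked it higher in their lists than ectoderm did. In the gene body, chr9:7659410-7659885 was an ectoderm region, at percentiles 33.4 and 33.7 there and without a peak at P2. The genes Mmp27 and Mmp7 share the Mmp20 window, so these regions cannot be assigned to Mmp20 alone.

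Klk4 differed from Mmp20 in where its peaks lay. Its start region, chr7:43880944-43881422, ranked at percentiles 40.8 and 52.7 in ectoderm and at 20.4 and 18.2 in Sox2-positive cells. Incisor and lower molar had no peak there, and the upper molar had one in its full list only. The window held 13 and 11 peaks in ectoderm, 5 and 4 in the sorted Sox2-positive cells, 4 in the whole incisor and 5 per molar, so that ectoderm did not overlap with P2. With equal lists the counts were 10 and 9, 4 and 4, then 3, 3 and 2.

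Ectoderm counts above all P2 counts were met by Klk4 and Fam83h in full and in equal lists, 2 of 9 members, and by 13.8% and 13.2% of all genes. Of the 14 regions at Klk4, 6 were ectoderm-only against the Sox2-positive cells, among them chr7:43861077-43861912 at -19.7 kb and chr7:43876295-43876938 at -4.5 kb from the start. A pair of regions beyond the gene, chr7:43894536-43895227 and chr7:43919562-43920332, were present in all 7 libraries. The Klk4 window of 104.645 kb also holds Klk5, Klk6 and Klk15, kallikreins of the same cluster, so the regions cannot be assigned to Klk4 alone.

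**Figure D2:**
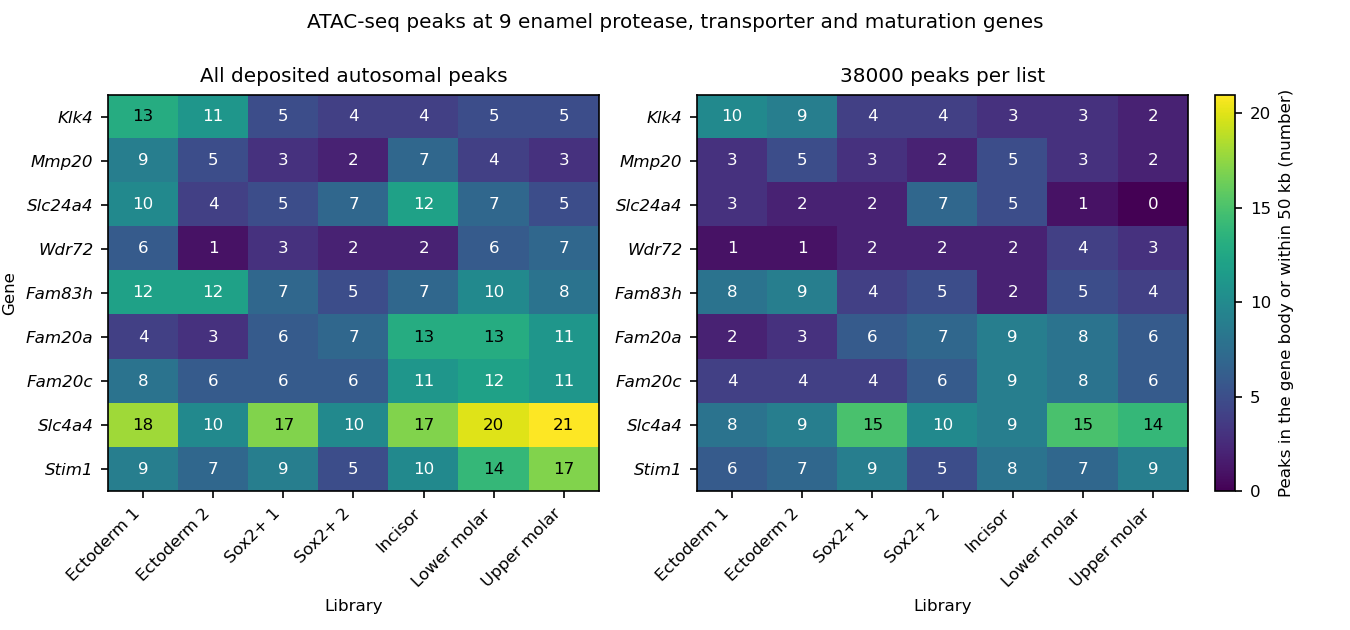
Number of peaks in the gene body or within 50 kb for each member (rows) and library (columns), with all autosomal peaks on the left and 38000 peaks per list on the right. Klk4 and Fam83h carry their highest counts in the 2 ectoderm columns, and Fam20a carries its lowest there.

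Slc24a4 encodes NCKX4, a potassium-dependent sodium/calcium exchanger that moves calcium out of the ameloblast towards enamel. Its start region, chr12:102128082-102129931, was strong in ectoderm, at percentiles 71.3 and 76.5. Sox2-positive replicate 1, incisor, lower molar and upper molar had a peak there only in their full lists, with signals of 262, 371, 319 and 489, and Sox2-positive replicate 2 had none. In ectoderm the peak covered all 250 promoter bases shown above, and in the 4 P2 libraries with a peak within 1 kb of the start that peak covered 0 of them.

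The 2 Sox2-positive libraries disagreed at Slc24a4. Replicate 2 and incisor shared 5 regions there that replicate 1 lacked, of 9 such regions at all members, or 5.42% of the 166, a pattern found at 5.26% of regions near any gene. Of the 5 at Slc24a4, 3 had a peak in no other library: chr12:102080531-102081213, chr12:102106048-102106676 and chr12:102147224-102147942, the last inside the gene. Replicate 2 ranked the middle one at percentile 65.2 and incisor at 42.6. The mirror pattern, replicate 1 and incisor without replicate 2, was seen at 11 member regions, or 6.63%, against 4.95%. With equal lists the first pattern was again seen at 9 member regions, or 8.26% against 6.4%, with 5 at Slc24a4, and the mirror pattern at 2, or 1.83% against 3.17%. Another body region, chr12:102243683-102244321, was found in both ectoderm libraries at percentiles 59.4 and 59.7 and in Sox2-positive replicate 1 at 6.21, and in no whole tooth. The counts in equal lists were 3 and 2 in ectoderm, 2 and 7 in the sorted Sox2-positive cells, 5 in incisor, 1 in lower molar and 0 in upper molar, so no Sox2-positive level can be set from the pair.

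Slc4a4 encodes NBCe1, a sodium bicarbonate cotransporter that buffers the acid released as crystals grow. Its start region, chr5:88886423-88888632, was open in every library, at percentiles 84.9 and 77.3 in ectoderm, 79.7 and 71.5 in the sorted Sox2-positive cells, 75.4 in incisor, 64.6 in lower molar and 71.3 in upper molar. The percentiles of ectoderm and Sox2-positive cells overlapped. Slc4a4 spans 445.799 kb and carried the most regions of any member, 39, of which 5 were in all 7 libraries and 15 in 1.

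Inside Slc4a4 an ectoderm region, chr5:89060474-89061745, lay 174 kb into the gene from its first start, at percentiles 80.3 and 79.6, and no P2 library had it. By contrast chr5:88878963-88879860 and chr5:89043650-89044511 were found in all 5 P2 libraries and not in ectoderm. The first of these stood at percentile 72.3 in lower molar and 73.7 in upper molar, 52.7 and 37.3 in Sox2-positive cells and 21.5 in incisor. The second stood at 35.2 in lower molar, 50.4 and 69.1 in Sox2-positive cells and 64.5 in incisor. Its upper molar peak was in the full list only, at a signal of 205 where the lowest in that list was 200. At chr5:88829861-88830870 both molars, at percentiles 69.5 and 75.4, and both Sox2-positive libraries, at 8.01 and 21.5, had a peak and the incisor had none.

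Stim1 encodes the endoplasmic reticulum calcium sensor that opens the store-operated entry channels through which ameloblasts take up calcium. Its start region, chr7:102266461-102268810, had the narrowest range of the 4 starts open throughout, from percentile 91.4 to 95.9 over the 7 libraries. The promoter shown above, rich in GC boxes, lay wholly under a peak in each. Of its 21 regions, 5 were found in both molars and no other library, of 12 with that pattern at all members, or 7.23% against 5.75% over all regions. With equal lists 7 member regions had that pattern, or 6.42% against 4.45%, of which Stim1 held 1 and Slc4a4 held 4, so the higher number at Stim1 did not hold. One region in the gene body, chr7:102399027-102400078, ranked high in the molars and had a peak in 6 of 7 libraries. It stood at percentile 86.2 in lower molar, 83.5 in upper molar, 55.5 in incisor and 55.7 and 39.4 in Sox2-positive cells. In ectoderm replicate 1 it was in the full list only. Signal is not scaled between lists, so these percentiles place the region within each list only. Regions at the ends of Rhog and Rrm1, which flank Stim1, were also in all 7 libraries and belong to those genes' ends by position.

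**Figure D3:**
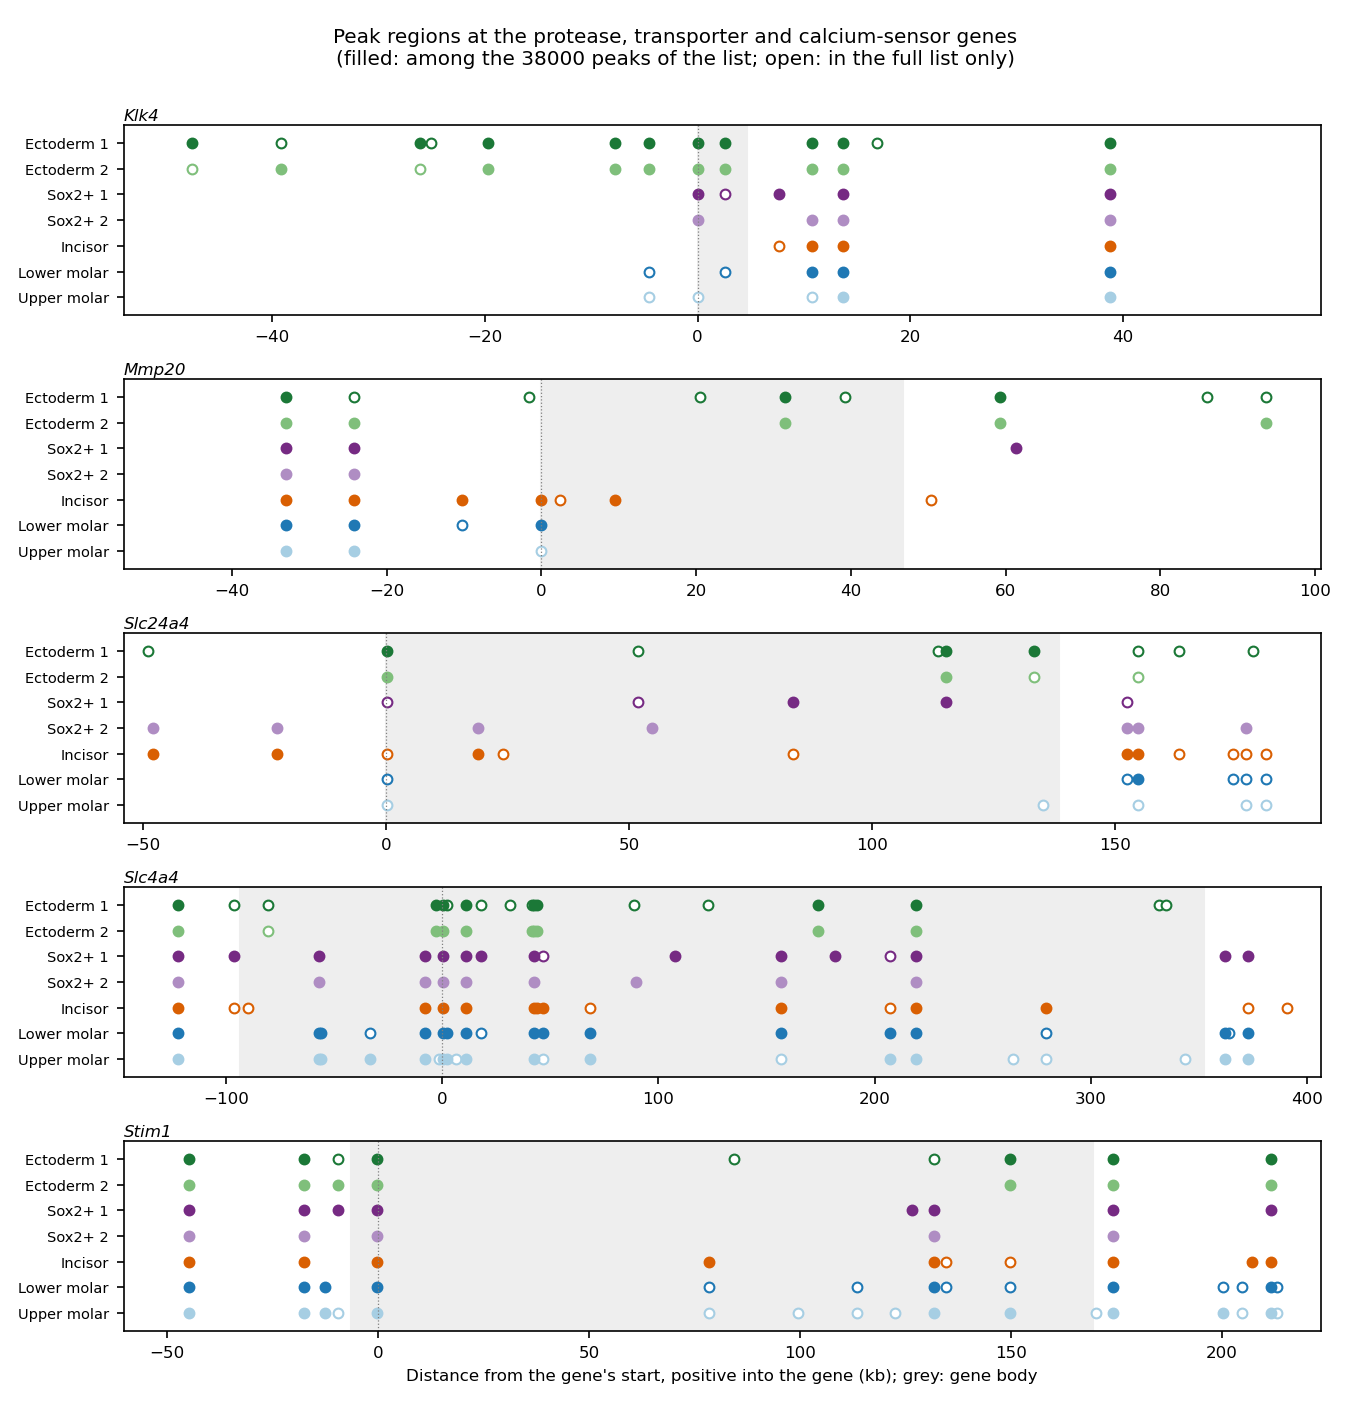
Position of each peak region at Mmp20, Klk4, Slc24a4, Slc4a4 and Stim1, as distance from the gene start in kb (x axis), with 1 row per library. Filled points are among the 38000 peaks of that library and open points are in its full list only. The start of Stim1 is filled in all 7 rows, and the start of Mmp20 is marked in the 3 whole-tooth rows alone.

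Fam20c is the Golgi kinase that phosphorylates secreted enamel and dentin proteins, and Fam20a is the pseudokinase that binds and activates it. Fam20a had more peaks in every P2 library than in ectoderm. Its window held 4 and 3 peaks in ectoderm, 6 and 7 in the sorted Sox2-positive cells, 13 in incisor, 13 in lower molar and 11 in upper molar, and 2 and 3, 6 and 7, then 9, 8 and 6 with equal lists. Every P2 count lay above both ectoderm counts in both settings, a result found at 2.56% of all genes in full lists and 9.2% in equal lists. Wdr72 met it in equal lists as well, with 1 peak in each ectoderm library and 2, 2, 2, 4 and 3 at P2. The mesenchymal markers lay higher at P2 in the same way (5 and 6 of 9 against 8 or 9), and their part in these counts was not tested.

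In the body of Fam20a, 3 regions were found in all 5 P2 libraries and not in ectoderm. One, chr11:109694969-109695506, 27.0 kb into the gene, ranked at percentiles 28.3 and 52.8 in Sox2-positive cells, 66.1 in incisor, 60.1 in lower molar and 52.1 in upper molar. Another, chr11:109670076-109672222, which lies within 1 kb of an annotated end of Prkar1a, was highest in incisor, at percentile 84.4. There the peaks of the Sox2-positive replicates lay side by side and were joined into a single region by the incisor peak. The last, chr11:109714596-109715911, 6.98 kb into the gene, ranked at percentiles 56.7 and 75.6 in Sox2-positive cells and 55.4 in incisor, and was in the full lists only of the molars. The start, chr11:109720980-109722545, was open in all libraries, at percentiles 60.8 and 53.0 in ectoderm and between 64.7 and 84.3 at P2, without overlap.

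Fam20c had its start region, chr5:138753485-138756780, in every library, and at 3296 bp it was the widest of the 166. It ranked at percentiles 89.8 and 92.5 in ectoderm, 64.4 and 87.0 in the sorted Sox2-positive cells, 87.7 in incisor, 87.5 in lower molar and 83.3 in upper molar. The Sox2-positive replicates were farther apart there than the ectoderm replicates. Just inside the gene, chr5:138757108-138757920 was a whole-tooth region, at percentile 6.67 in incisor, 37.4 in lower molar and 29.9 in upper molar. The body region chr5:138802864-138803686 ranked at percentiles 78.5 and 81.6 in the molars, 59.3 in incisor and 70.9 and 66.4 in Sox2-positive cells, while ectoderm had it in the full list of replicate 1 alone. Peak counts were 8 and 6 in ectoderm, 6 and 6 in Sox2-positive cells and 11, 12 and 11 in whole teeth, and with equal lists 4 and 4, 4 and 6, then 9, 8 and 6. The whole teeth lay above the other 4 libraries in full lists, as they did at Fam20a and Stim1, and the share of all genes with this order was not counted. With equal lists the order held at none of these members, and at Fam20c the upper molar tied with Sox2-positive replicate 2.

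Wdr72 is a vesicle-associated protein that ameloblasts need to take up matrix fragments in maturation. At its end with the lower coordinate, chr9:74109893-74110924 was found in both ectoderm libraries, at percentiles 57.6 and 48.8, and in both molars in the full lists only. Neither Sox2-positive library nor the incisor had it. Start peaks in ectoderm that both Sox2-positive libraries lacked occurred at 6.04% of all genes, and start peaks in both molars without the incisor at 1.99%. In the body, chr9:74116392-74117303 showed the opposite: it was present in all 5 P2 libraries and in no ectoderm library, at percentiles 64.8 and 58.2 in the molars, 25.3 in incisor and 40.2 and 2.23 in Sox2-positive cells. A second body region, chr9:74258392-74258866, was in both Sox2-positive libraries, at percentiles 10.5 and 1.27, and in both molars, at 42.9 and 44.3, but not in incisor. No other protein-coding gene lies in the Wdr72 window.

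Fam83h encodes a cytoplasmic scaffold that binds casein kinase 1 and organises keratin filaments. Its window held 12 and 12 peaks in ectoderm, 7 and 5 in the sorted Sox2-positive cells, 7 in incisor, 10 in lower molar and 8 in upper molar. The region at one gene end, chr15:76013156-76015438, ranked at percentiles 61.7 and 66.6 in ectoderm and at 1.01 in Sox2-positive replicate 1. In the whole teeth it was in the full lists only, and Sox2-positive replicate 2 had no peak there. The body region chr15:76003023-76004427 was in both ectoderm libraries, at percentiles 48.6 and 56.5, and in no P2 library. Of the 14 regions, 5 lay within 1 kb of an end of Zfp707, Ccdc166, Mapk15 or Iqank1. The 2 strongest of them, at Ccdc166 and Zfp707, were in all 7 libraries. So was the region at Iqank1, inside the body of Fam83h, in full lists.

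**Figure D4:**
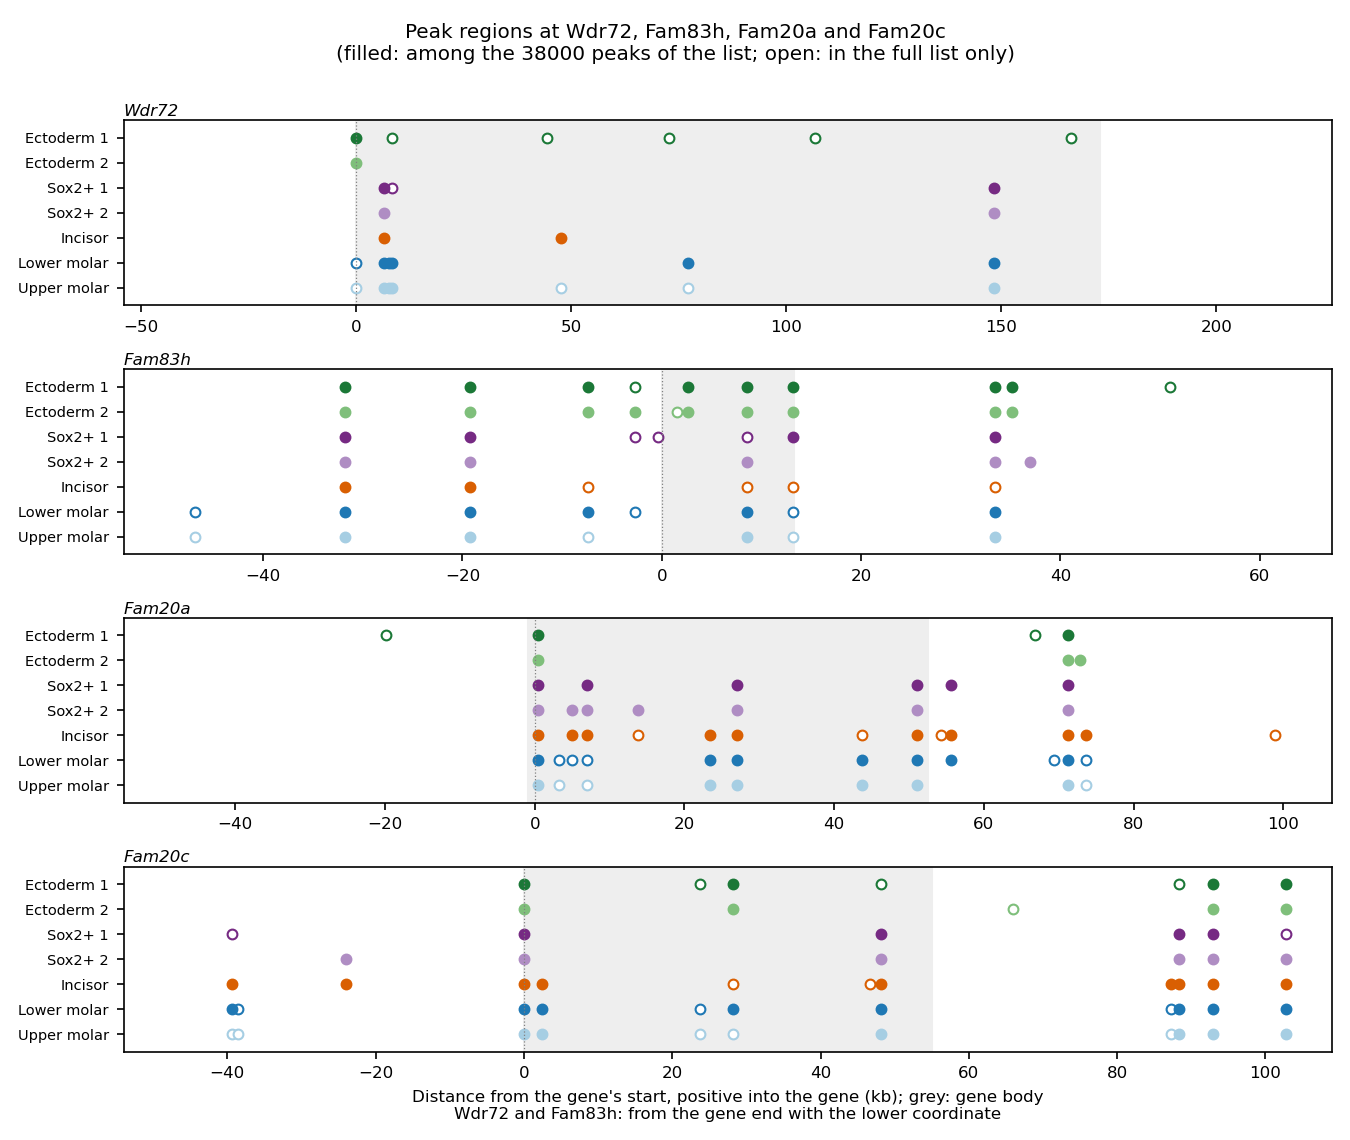
Position of each peak region at Wdr72, Fam83h, Fam20a and Fam20c in kb (x axis) for each library (rows), filled where the peak is among the 38000 of its list and open where it is in the full list only. Distances are from the gene start, and for Wdr72 and Fam83h from the end with the lower coordinate. The body of Fam20a has no point in either ectoderm row apart from the start, and has points in every P2 row.

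Set side by side over all members, the Sox2-positive cells had fewer private regions than the ectoderm, and the same order held over all regions. Of 123 member regions in those 4 lists, 8 were Sox2-positive-only, or 6.50%, against 7.58% of all regions near a gene. They lay at Slc4a4 (3), Fam20a (2), Wdr72 (2) and Slc24a4 (1). The Fam20a region near Prkar1a is not among them, since only these 4 lists were merged here and the peaks of the Sox2-positive replicates did not overlap each other there. Ectoderm-only regions numbered 21, or 17.1%, against 22.4%, led by Klk4 with 6 and Slc4a4 with 5. With equal lists, 10 of 88 regions were Sox2-positive-only, or 11.4%, against 13.8% of all regions, and 16 were ectoderm-only, or 18.2%, against 17.3%. The member shares lay close to those of all regions in both directions. The counts rest on both replicates: without Sox2-positive replicate 1 or 2 the Sox2-positive-only count was 20 or 23, and without ectoderm replicate 2 the ectoderm-only count was 50. With 2 libraries against 2 the smallest two-sided exact permutation p is 0.333, so no member was tested alone.

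Peak counts were then compared gene by gene in the same 4 libraries. Both ectoderm counts lay above both Sox2-positive counts for Klk4, Mmp20 and Fam83h, 3 of 9 members, in full lists, against 41.4% of all genes, and for Klk4 and Fam83h in equal lists, against 20.1%. The reverse held for Fam20a in full lists, against 3.07% of all genes, and for Fam20a, Wdr72 and Slc4a4 in equal lists, against 17.6%. At Slc4a4 the equal-list counts were 8 and 9 in ectoderm and 15 and 10 in Sox2-positive cells, so the nearest values differed by 1 peak.

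The sorted cells come from a part of the incisor, and few of their member regions were missing from the whole tooth. Of 103 regions in the 3 lists, 3 were in both Sox2-positive libraries and not in incisor, or 2.91%, against 1.74% of all regions. They were the start of Klk4, the body region of Wdr72 and the body region of Slc4a4 described above. The incisor held 31 that neither sorted library had, or 30.1%, against 28.9% of all regions. With equal lists the counts were 4 of 76, against 6.81%, and 13 of 76, against 11.6%. Without Sox2-positive replicate 1 or 2 the first count, over full lists, was 6 or 17.

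The incisor and the molars each had regions that the other lacked. Of 118 regions in the whole-tooth lists, 20 were in incisor and neither molar, or 16.9%, against 13.5% of all regions, and 20 were in both molars and not in incisor, against 16.8%. With equal lists the counts were 15 of 71, against 17.6%, and 13 of 71, against 15.3%. Each tooth had 1 library, so these differences have no replicate check.

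Over all 7 libraries, 22 of the 166 regions were present throughout, or 13.3%, against 16.4% of regions near a gene. Those in 1 library numbered 53, or 31.9%, against 29.9%, and with equal lists 32 of 109, or 29.4%, against 24%. Another 15 regions, or 9.04%, were in both ectoderm libraries and no P2 library, against 11.1%. A further 6 were in all 5 P2 libraries and no ectoderm library, against 4.52%: 3 at Fam20a, 2 at Slc4a4 and 1 at Wdr72. With equal lists the patterns of all 7 libraries, ectoderm alone and P2 alone took 18, 13 and 7 of 109 regions, against 21.9%, 12% and 6.16% of all regions. The 7 then lay at Fam20a (2), Fam20c (2), Wdr72 (1), Slc4a4 (1) and Stim1 (1), so the split by member changed with the list. Regions of the 3 whole teeth alone numbered 10, or 6.02%, against 3.9%. With equal lists that count was 2 of 109, against 1.72%. No member region was found in both Sox2-positive libraries and nowhere else, in full or in equal lists. That pattern was also rare over all regions, at 0.22% in full lists and 1.42% in equal lists. By place, 6 of 14 regions at ends of neighbouring genes were in all 7 libraries. So were 4 of 10 at the members' starts, 9 of 62 in the flanks and 3 of 80 in the bodies. The shares by place over all regions were not counted, so these numbers are not particular to the members.

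**Figure D5:**
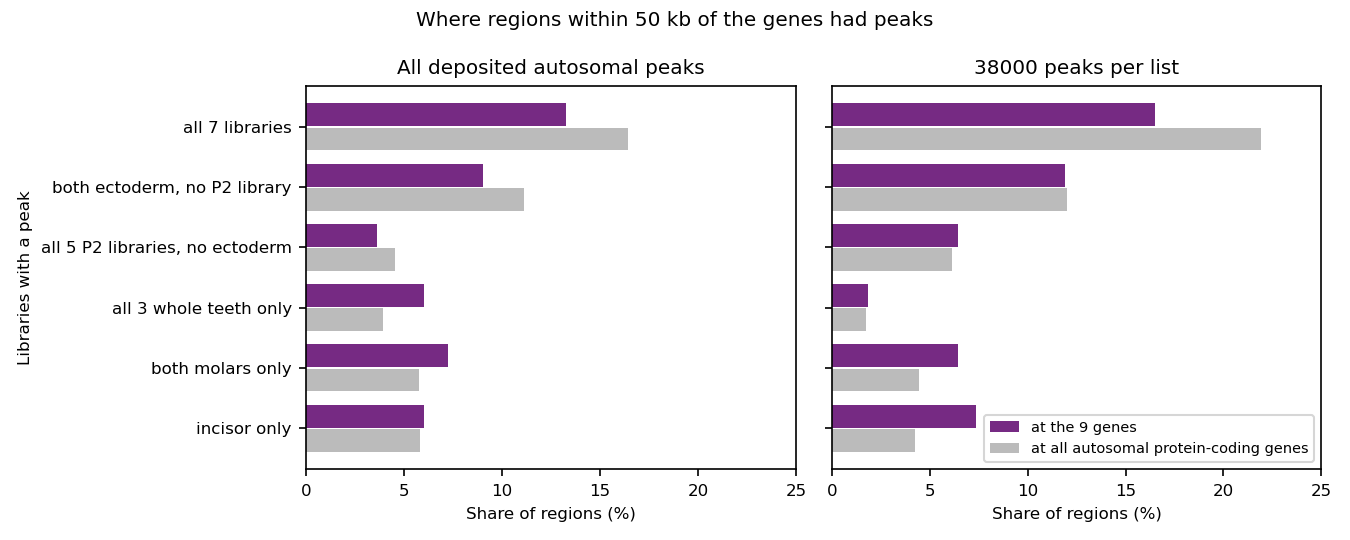
Share of regions (percent) with each pattern over the 7 libraries, for the regions at the 9 members and for regions at all autosomal protein-coding genes, with full lists and with 38000 peaks per list. Regions in all 7 libraries make up 13.3% of the member regions and 16.4% of all regions in full lists.

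Other genes of enamel formation, listed by function, were read at their starts. Of 20 autosomal enamel disease genes, 15 had a start peak in each ectoderm library, 12 in each Sox2-positive library, 14 in incisor, 17 in lower molar and 16 in upper molar. The shares of all genes with a start peak were 68.2% and 65.9%, 59.7% and 58.4%, 62.2%, 63.6% and 63.5% in that order. With equal lists the counts were 14 in each ectoderm library, 12 in each Sox2-positive library, 11 in incisor, 14 in lower molar and 13 in upper molar, so the molars no longer exceeded ectoderm. In full lists 4 of 20 were marked in both ectoderm libraries and lacked a peak in Sox2-positive cells, against 6.04% of all genes. Itgb6, an integrin subunit, Acp4, an acid phosphatase, and Col17a1, a hemidesmosome collagen, were among them. With equal lists Col17a1 was also unmarked in ectoderm replicate 2. Ambn, the enamel matrix protein ameloblastin, had the opposite state, found at 0.397% of all genes, with percentiles of 48.2 and 34.7 in Sox2-positive cells, 71.8 in incisor, 48.9 in lower molar and 50.8 in upper molar. The enamel surface genes Amtn, Odam and Odaph had no start peak in any library.

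Of 22 genes for ion and acid transport, 17 had a start peak in each ectoderm library, 16 and 14 in the Sox2-positive libraries and 18 in each whole tooth, beside the same shares of all genes. With equal lists the counts were 17 in each ectoderm library, 15 and 14 in the Sox2-positive libraries, 16 in incisor and 17 in each molar, so no whole tooth lay above ectoderm. In full lists the anion exchangers Slc26a4 and Slc26a7, 2 of 22, had one in both ectoderm libraries but in no Sox2-positive library, against 6.04% of all genes. Slc26a1, 1 of 22, had the reverse state, against 0.397%, at percentiles 29.7 and 47.9 in Sox2-positive cells. It stood at 30.0 in incisor, 66.5 in lower molar and 67.2 in upper molar. At Slc26a4, also called pendrin, the percentiles were 79.6 and 74.6 in ectoderm, 1.33 in incisor, 41.4 in lower molar and 42.2 in upper molar. Slc34a2, a phosphate cotransporter, stood at 82.8 and 85.9 in ectoderm and at 47.5 and 9.91 in Sox2-positive cells.

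Genes with close peak counts over the 7 equal lists were sought for members with at least 20 peaks in sum, by the sum of absolute differences, and 2 were named per member with ties taken by symbol. Gm38564 was nearest to Mmp20, at a sum of 1, and Dnal4 to Fam20c, also at 1. Tbc1d30 (2) and Fgd6 (3) were nearest to Stim1. Pairs tied for nearest were Faf1 and Isl2 for Klk4 (3 each), Ssbp2 and Tagap for Slc24a4 (5 each) and Mob3b and Parva for Slc4a4 (6 each). The other names are the first by symbol in longer ties: Atp2c1 is 1 of 15 genes at 3 from Mmp20, and Cavin1 is 1 of 9 at 4 from Fam20c. Likewise 4933427D14Rik and Cdh2 are 2 of 7 genes at 4 from Fam20a, and Eif4e2 and Fbxo43 are 2 of 11 at 4 from Fam83h. Wdr72 had too few peaks to be matched.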

How the data were processed

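Peak lists from 7 ATAC-seq libraries were used, 1 list per library. The submitters' processing notes name FastQC, Trimmomatic, Bowtie2, deepTools, Genrich and the build mm10, and options, filters and any shift of reads for the transposase are not given in the sources used here. The authors deposited for each peak a signal, 200.0 or more in every list, and a −log10 p-value, from 2.56 to 17.8. Neither was scaled between lists, so both served only to rank peaks within a list.

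Peaks on the 19 autosomes were counted where they overlapped a gene body or the 50 kb on either side, with RefSeq genes on GRCm38.p6. Equal lists held the 38000 peaks with the largest −log10 p, with ties ordered by signal, and percentiles are of signal within them. Peaks sharing 1 bp were merged into regions, and a group with replicates had a region if both did. A start was the promoter table's (16456 of 20661 genes) or else either gene end. Regions named were drawn from the start, the 3 highest by mean percentile, and up to 3 each private to Sox2-positive cells, ectoderm or whole teeth. Not all of those are named, and regions in all 7 libraries at Fam20a, Fam20c, Slc4a4 and Stim1 are among those left out. Some further regions were named after their values were seen. No test was run: the lists hold no read counts, and 2 libraries against 2 cannot reach the usual threshold. The members and gene lists were chosen with earlier results of these data known. Scripts used Python 3.11.15 and pandas 2.3.3. Region counting was tested on simulated regions. The values of 1 gene of the enamel disease list are not reported here.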

Additional observations from a re-analysis of the deposited data

How the results depend on the processing

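The settings tried were equal lists by p-value or by signal, the 50% of each list ranked highest by p-value, flanks of 25 and 100 kb, the peak summit in place of any overlap, start windows of 500 bp and 2.5 kb, 50% coverage, leaving out each replicate, and leaving out regions at ends of other genes, the last chosen after seeing the data. Mean peak counts in Sox2-positive cells stayed below ectoderm at Klk4, Mmp20 and Fam83h and above it at Fam20a in every setting. At Slc24a4, Wdr72, Fam20c, Slc4a4 and Stim1, where the groups overlapped, the difference changed sign in both kinds of equal lists. Counts changed with list length. Peaks per library at the members averaged 74.1, and 49 with equal lists by p-value, 48.7 by signal and 37 with the 50% lists. Members with a start peak in all 3 whole teeth numbered 7, and 4 under each of those settings. Incisor regions absent from Sox2-positive cells numbered 31, and 13, 8 and 15. With the 50% lists, members with a start peak in both Sox2-positive libraries numbered 2 in place of 5, Sox2-positive-only regions 4 in place of 8, Sox2-positive regions without the incisor 1 in place of 3, and incisor-only regions 11 in place of 20, which was also the value by signal. Molar-only regions numbered 13 in place of 20 by p-value, and Sox2-positive-only regions 15 with 100 kb flanks. The cause was not tested. The other 68 values that answer a comparison stayed within 1.5 times. Of the mean differences per gene between Sox2-positive cells and ectoderm, 22 values moved by at least the replicate spread and 68 by less.

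Leaving out 1 replicate gave 8 to 23 Sox2-positive-only and 23 to 50 ectoderm-only regions, 6 to 17 Sox2-positive regions without the incisor, 40 to 42 incisor regions without Sox2-positive cells, 5 to 7 members with a start peak in Sox2-positive cells, 8 in ectoderm, and 71.7 to 78.5 peaks per library. No paired analysis was possible because no result comes from a test, and 2 libraries against 2 could not pass the usual threshold. Depth is unknown, so a missing peak may be an undetected one.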
